A study of Mus musculus with 32 samples.

Results

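Gene expression in murine interscapular brown adipose tissue (iBAT) was compared between the dark phase, when mice are active and feed, and the light phase, when they rest. The dark group held the 12 libraries of ZT15, ZT18 and ZT21 and the light group the 12 libraries of ZT3, ZT6 and ZT9, with 4 mice per time point and 1 library per mouse, which makes 24 of the 32 libraries of the series. Zeitgeber time (ZT) counts the hours from lights on. The 8 libraries of ZT0 and ZT12, the onsets of light and dark, lie between the phases and were left out of both groups. All mice were male C57BL/6J, 10 weeks old, not fasted, fed chow without restriction and housed in mild cold under a cycle of 12 h light and 12 h dark. The sources name no genetic change and no agent in any of them. RNA came from small pieces of the fat pad, in which brown adipocytes lie among vessels, nerves, stroma and leukocytes.

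Brown adipocytes burn fatty acids and glucose to make heat through uncoupling protein 1 (UCP1), which lets protons leak back across the inner mitochondrial membrane. Like other cells they hold a circadian clock, in which BMAL1 (encoded by Arntl) pairs with CLOCK or NPAS2 at E-box sequences and drives Per, Cry and Nr1d1 genes, whose proteins in turn repress the activators. In nocturnal animals feeding, insulin, body temperature and glucocorticoids change between light and dark together with the clock.

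The promoters of 4 genes are printed as examples, because the levels of these genes did not overlap between the phases and their windows hold a short motif known from the clock or the heat-shock response. They are RefSeq windows of GRCm38.p6, from 250 bases before to 50 after the transcription start, read 5′ to 3′ on the strand of the gene. Capitals mark the E-box CACGTG in Cry1 (chr10:85185005-85185304, minus strand) and Ppp1r3c (chr19:36736555-36736854, minus strand). In Slc46a3 (chr5:147894766-147895065, minus strand) and Dnajb6 (chr5:29735648-29735947, plus strand) they mark the core of a heat-shock element, GAANNTTC. Both motifs read the same on either strand. Neither motif was in the windows of Nr1d1, Kdelr3 and Cirbp, which separated the phases too, nor in those of the clock genes Dbp, Arntl and Npas2.
Cry1: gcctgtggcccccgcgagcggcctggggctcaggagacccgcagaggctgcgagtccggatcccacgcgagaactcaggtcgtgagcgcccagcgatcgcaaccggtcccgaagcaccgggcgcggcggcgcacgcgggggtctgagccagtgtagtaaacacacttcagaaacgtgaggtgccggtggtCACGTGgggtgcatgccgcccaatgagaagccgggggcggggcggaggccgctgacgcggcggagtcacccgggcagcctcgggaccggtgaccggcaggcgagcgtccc
Ppp1r3c: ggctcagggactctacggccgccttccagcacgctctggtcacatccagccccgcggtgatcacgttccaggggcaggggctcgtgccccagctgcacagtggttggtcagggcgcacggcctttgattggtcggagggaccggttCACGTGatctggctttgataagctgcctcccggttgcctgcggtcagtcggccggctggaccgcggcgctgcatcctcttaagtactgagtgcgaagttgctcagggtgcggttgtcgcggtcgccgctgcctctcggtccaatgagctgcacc
Slc46a3: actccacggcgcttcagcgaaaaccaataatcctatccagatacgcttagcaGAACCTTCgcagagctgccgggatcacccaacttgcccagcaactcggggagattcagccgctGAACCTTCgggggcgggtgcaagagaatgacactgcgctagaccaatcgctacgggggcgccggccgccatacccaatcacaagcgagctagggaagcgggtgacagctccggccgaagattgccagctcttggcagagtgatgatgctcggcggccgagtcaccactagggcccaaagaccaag
Dnajb6: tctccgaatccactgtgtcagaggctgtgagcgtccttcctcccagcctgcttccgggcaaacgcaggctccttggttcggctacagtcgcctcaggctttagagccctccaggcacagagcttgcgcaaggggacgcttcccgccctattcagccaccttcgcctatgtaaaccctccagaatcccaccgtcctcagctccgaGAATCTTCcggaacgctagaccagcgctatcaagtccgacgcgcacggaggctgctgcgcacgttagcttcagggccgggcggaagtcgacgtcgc

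RefSeq windows were matched to 10910 of the 15505 tested genes. A gene counted as holding a motif where any of its windows held it. The E-box was held by 11.4% of these genes, by 12.0% of those higher in the dark phase and by 11.9% of those higher in the light phase. The heat-shock core was held by 6.98% of all genes with a window, by 7.03% of those higher in the dark phase (101 of 1436) and by 6.85% of those higher in the light phase (104 of 1518). Among larger differences, it was held by 13.5% of genes more than 1.5-fold higher in the dark phase (19 of 141) and by 5.83% of genes more than 1.5-fold higher in the light phase (18 of 309). These shares are a description without a test, and a match to the letters is not a bound site.

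Total counts per library ran from 17136479 to 18254659 in the dark group and from 16648905 to 17839159 in the light group. Per the labels, lane 2 carried ZT3 and ZT6, lane 3 carried ZT9 together with ZT15, and lane 4 carried ZT18 and ZT21, so that lane and phase cannot be told apart except between ZT15 and ZT9. The tissue expressed all 10 brown adipocyte markers examined, led by Cidea and Ucp1. Replicate 1 of ZT15 stood apart from the other 3 libraries of its time in total counts, mitochondrial share and the summed levels of brown and white adipocyte markers. Skeletal muscle markers summed to between 59.1 and 10270 CPM (counts set to the same total in each library, with TMM factors), with a mean of 3050 ± 3186 CPM in the dark group and 1535 ± 2955 CPM in the light group (SD, n = 12 each). The sums were skewed, with a median of 2318 CPM in the dark and 80.8 CPM in the light group. The difference in their means did not pass a test (permutation test, two-sided, 100000 resamples, p = 0.244, 0.298 after Benjamini-Hochberg (BH) adjustment over 11 library measures). Counts over short gene lists move when single libraries, or those high in muscle markers, are left out, and are given below with their range where they moved by over 1.5 times. Libraries high in muscle markers had a sum over 5 times the median of all libraries. They were replicate 2 of ZT3, replicates 1 and 3 of ZT15, replicate 4 of ZT18 and replicate 3 of ZT21. Outside the groups they were replicates 3 and 4 of ZT0 and replicate 2 of ZT12. Leaving them out also drops replicate 1 of ZT15 and lowers the number of mice, and these effects cannot be told apart. Nothing in the labels ties mice of different time points to each other, and p-values measure the spread between mice of 1 experiment.

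The first question was how much of the transcriptome differs between the phases. Of the 15505 tested genes, 3957 (25.5%) differed with edgeR's quasi-likelihood test at a BH-adjusted threshold of 0.05, of which 1934 (12.5% of those tested) were higher in the dark phase and 2023 (13.0%) higher in the light phase. Differences were mostly small, with a median of 1.21-fold among genes higher in the dark phase and 1.25-fold among genes higher in the light phase. More than 2-fold were 89 and 103 genes, respectively. Of the 3957 genes, 2955 had the same sign in each of the 3 comparisons of times 12 h apart (ZT15 with ZT3, ZT18 with ZT6, ZT21 with ZT9).

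The levels of single mice overlapped between the phases for nearly all genes. In 48 genes (0.310% of those tested) every dark library lay on the same side of every light library, with 23 genes higher in the dark phase and 25 higher in the light phase. Without replicate 1 of ZT15 there were 80 such genes and without replicate 1 of ZT3 77. Between ZT15 and ZT9, sequenced on the same lane, 1213 genes differed (7.82%), 635 higher at ZT15 and 578 higher at ZT9. With lane as an additive factor, 779 genes differed between the phases, and with the 6 time points rather than the mice as the unit only 5 did.

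The 12 genes with the highest dark-to-light ratio among those without overlap covered a clock repressor, glycogen metabolism, a lysosomal carrier and a chaperone. Cry1 (chr10:85131700-85185064), a core repressor of the clock whose promoter with its E-box is given above, ranged over 24.9 to 37.4 CPM (median 32.3) in the dark libraries and over 6.96 to 20.5 CPM (median 11.6) in the light libraries. No light library reached the lowest dark one, and the difference was log2 fold change 1.52 ± 0.09 SE, adjusted p = 1.51e-12.

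Ppp1r3c (chr19:36731731-36736653) encodes a targeting subunit that brings protein phosphatase 1 to glycogen and favours glycogen synthesis. It lay at 112 to 324 CPM (median 169) in the dark phase and at 46.3 to 109.5 CPM (median 74.3) in the light phase, log2 fold change 1.31 ± 0.15 SE, adjusted p = 3.5e-07. Its paralogue Ppp1r3b, with a like role, was among the 5 genes with the widest CPM difference to the dark side, at 504 to 1397 CPM (median 1033) against 229.8 to 656 CPM (median 350.3) (log2 fold change 1.31 ± 0.18 SE, adjusted p = 8.4e-06). The ranges of Ppp1r3b overlapped, unlike those of Ppp1r3c.

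The other genes of that kind were 2 mitochondrial rRNAs, given with the mitochondrial genes, and Gpd1 and Thrsp. Gpd1, the cytosolic glycerol-3-phosphate dehydrogenase that feeds triglyceride synthesis, ranged over 3980 to 9463 CPM (median 8139) in the dark and 4390 to 7226 CPM (median 6253) in the light libraries (log2 fold change 0.34 ± 0.12 SE, adjusted p = 0.0336). It passed in 13 of 24 fits that each left out 1 library, and the lowest dark mouse lay below every light mouse. Of its exonic bases 13.0% lie also in Gm16537.

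Slc46a3 (chr5:147878437-147894815), a lysosomal membrane carrier with 2 heat-shock cores in its promoter, ranged over 16.7 to 25.2 CPM (median 20.9) and 9.41 to 13.4 CPM (median 11.5) (log2 fold change 0.85 ± 0.06 SE, adjusted p = 5.14e-11), and no dependence on the hours compared passed the threshold (adjusted p = 0.185). Dnajb6 (chr5:29735688-29818134), a co-chaperone of HSP70 that keeps proteins from aggregating, ranged over 25.6 to 35.0 CPM (median 31.9) and 16.9 to 22.9 CPM (median 19.5) (log2 fold change 0.64 ± 0.04 SE, adjusted p = 1.19e-11).

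Enzymes were among the leading genes too. Xdh, the xanthine oxidoreductase that makes uric acid, ranged over 215 to 298 CPM (median 248) in the dark and 144 to 199 CPM (median 169.5) in the light libraries (log2 fold change 0.59 ± 0.06 SE, adjusted p = 1.29e-07). Fmo1, a flavin-containing monooxygenase, ranged over 555 to 939 CPM (median 694) and 398 to 552 CPM (median 474) (log2 fold change 0.56 ± 0.08 SE, adjusted p = 1.31e-05). Smarca2, an ATPase of the SWI/SNF chromatin remodelling complex, ranged over 72.8 to 96.1 CPM (median 81.9) and 47.7 to 68.5 CPM (median 56.9) (log2 fold change 0.51 ± 0.07 SE, adjusted p = 7.9e-06). All 3 were about 1.5-fold higher in the dark phase with every dark library above every light library.

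The remaining genes of this group were Trim65, a ubiquitin ligase (0.79, adjusted p = 1.08e-07), Pinx1, a nucleolar inhibitor of telomerase (0.72, adjusted p = 7.56e-05), Nsun5, an RNA methyltransferase of the large ribosomal subunit (0.57, adjusted p = 3.91e-07), Ankrd26 (0.50, adjusted p = 7.9e-06) and the gene model Gm13414 (0.74, adjusted p = 4e-07). Nsun5 shares 15.4% of its exonic bases with Pom121 on the opposite strand, and the sources do not state whether the counting used the strand.

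**Figure D1:**
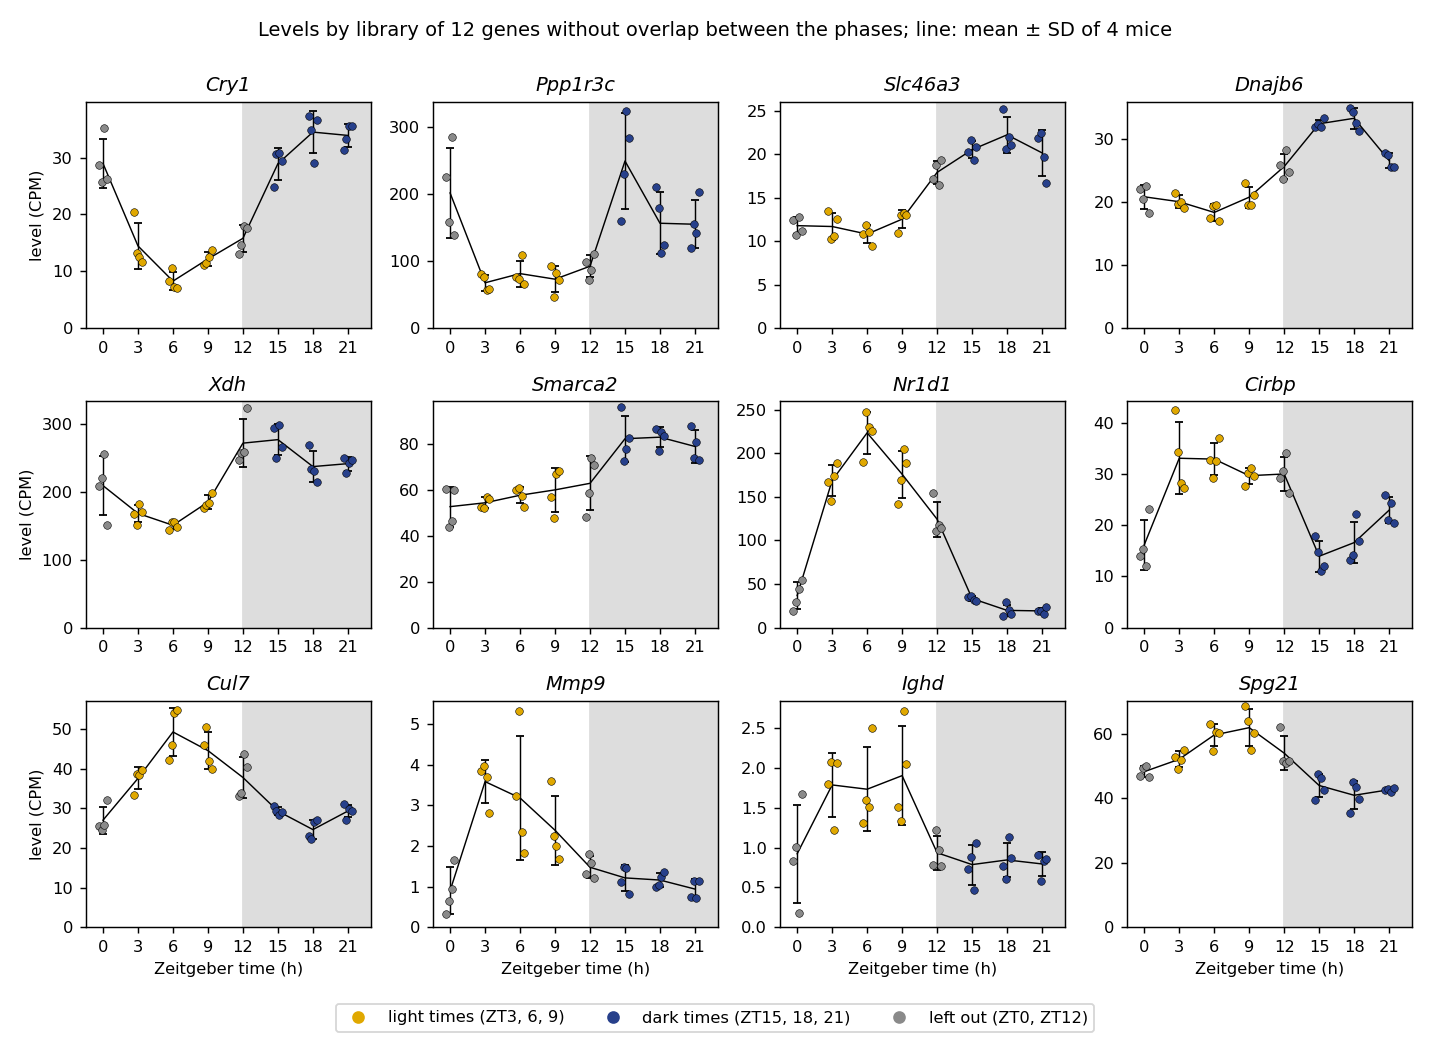
Levels of 12 genes in CPM against Zeitgeber time in hours, where points are single libraries and lines join the mean ± SD of the 4 mice per time point. Cry1, Ppp1r3c, Slc46a3, Dnajb6, Xdh and Smarca2 lie above every light library at ZT15 to ZT21, and Nr1d1, Cirbp, Cul7, Mmp9, Ighd and Spg21 lie below every light library.

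Genes leading in the light phase were headed by Nr1d1 (chr11:98767932-98775333), which encodes the haem-binding repressor REV-ERBα of the clock. It ranged over 142 to 248 CPM (median 188) in the light and 13.5 to 35.6 CPM (median 22.1) in the dark libraries, log2 fold change -3.02 ± 0.14 SE, adjusted p = 8.33e-15, the widest difference among the genes without overlap. Even the lowest light mouse stood far above the highest dark mouse. Of its exonic bases 8.55% lie also in Thra on the opposite strand.

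Cirbp (chr10:80165985-80172786), an RNA-binding protein known to be induced by cool temperature, ranged over 27.1 to 42.5 CPM (median 30.7) in the light and 11.1 to 25.9 CPM (median 17.3) in the dark libraries (log2 fold change -0.87 ± 0.10 SE, adjusted p = 6.56e-07). Cul7 (chr17:46650337-46664364), a scaffold of a ubiquitin ligase that targets insulin receptor substrate 1, ranged over 33.4 to 54.7 CPM (median 42.0) and 22.1 to 31.0 CPM (median 28.7) (log2 fold change -0.65 ± 0.06 SE, adjusted p = 1.2e-08). Neither gene showed an overlap between the phases.

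Several genes of this group act outside the adipocyte or are expressed by other cells. Mmp9, a matrix-degrading protease of leukocytes, ranged over 1.69 to 5.32 CPM (median 3.02) in the light and 0.724 to 1.48 CPM (median 1.13) in the dark libraries (log2 fold change -1.45 ± 0.19 SE, adjusted p = 4.25e-06). Ighd, the heavy chain of IgD and a marker of mature B cells, ranged over 1.22 to 2.71 CPM (median 1.70) and 0.466 to 1.13 CPM (median 0.849) (log2 fold change -1.16 ± 0.21 SE, adjusted p = 0.000189). Both are near the low end of what was tested, and in bulk tissue fewer cells of a type and less RNA per cell cannot be told apart. The summed level of 13 lymphoid markers was lower in the dark phase too, at 5.86 ± 1.77 CPM (4.14 to 9.55) against 8.84 ± 1.59 CPM (6.15 to 11.6; SD, n = 12 each, permutation test, two-sided, p = 0.00047, adjusted p = 0.00517), and its part in these differences was not tested.

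Among the light-phase genes with higher levels, Cxcl12, the chemokine that holds leukocytes in tissue, ranged over 128 to 189.9 CPM (median 158) in the light and 96.0 to 128 CPM (median 116) in the dark libraries (log2 fold change -0.43 ± 0.05 SE, adjusted p = 2.43e-06). Scpep1, a lysosomal serine carboxypeptidase, ranged over 69.2 to 101 CPM (median 75.1) and 47.7 to 62.7 CPM (median 54.4) (log2 fold change -0.54 ± 0.07 SE, adjusted p = 1.08e-06). Spg21 ranged over 48.9 to 68.5 CPM (median 57.6) and 35.4 to 47.6 CPM (median 42.8) (log2 fold change -0.44 ± 0.04 SE, adjusted p = 7.9e-08). The phases of Cxcl12 lay closest together, with the lowest light and the highest dark mouse at 128 CPM each.

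The others were Kdelr3, a receptor that returns chaperones to the endoplasmic reticulum (-1.01, adjusted p = 1.23e-06), the zinc finger gene Zfp28 (-0.71, adjusted p = 2.43e-06), Rgs6, a regulator of G protein signalling (-0.69, adjusted p = 1.18e-05), and Slco2a1, the prostaglandin transporter (-0.62, adjusted p = 7.56e-05). Within lane 3, 22 of the 24 leading genes passed the threshold between ZT15 and ZT9, against 7.82% of all tested genes. The exceptions were Mmp9 (log2 fold change -0.97, adjusted p = 0.0706) and Rgs6 (-0.47, adjusted p = 0.0872). The choice of genes without overlap had already set the libraries of ZT15 and ZT9 apart, so this count is no separate check of lane.

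**Figure D2:**
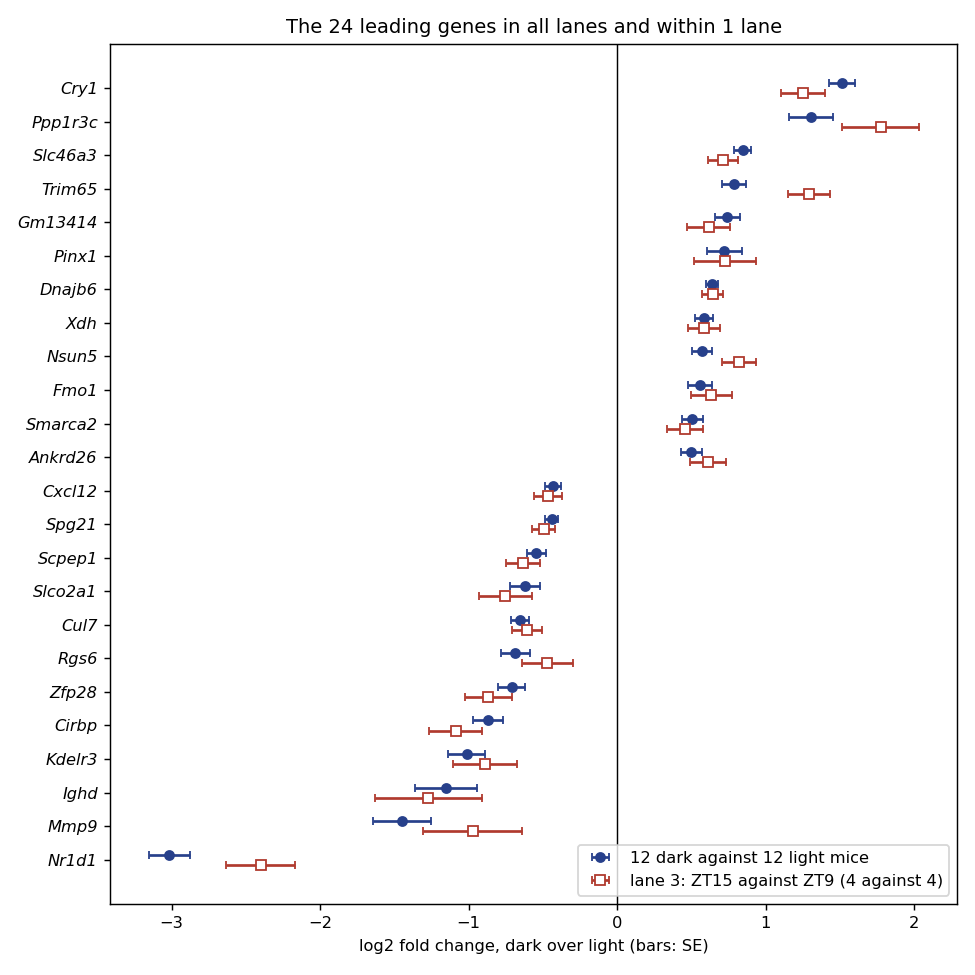
Log2 fold change, dark over light, of the 12 leading genes in each direction, with bars of ± 1 SE from edgeR, for all lanes (filled circles) and for ZT15 against ZT9 within lane 3 (open squares). Nr1d1 stands at -3.02 and Cry1 at 1.52. Since the genes were chosen for having no overlap between the phases, the sign of the lane 3 values was fixed by that choice.

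A mean over 3 time points can hide a time course. Whether the difference depended on the hours compared was tested as the equality of the 3 differences 12 h apart, and 2034 genes (13.1% of those tested) failed it, including 824 of the 3957 genes that differed between the phases (20.8%). Without the libraries high in muscle markers 1024 genes failed it. Within the light phase 972 genes (6.27%) differed between ZT3, ZT6 and ZT9, and within the dark phase 1337 (8.62%) between ZT15, ZT18 and ZT21. Of the 24 leading genes, 6 depended on the hours (Cry1, Trim65, Dnajb6, Nr1d1, Cirbp and Cul7). Their sign at each pair was fixed by the choice of genes without overlap. Nr1d1 fell by 2.34, 3.50 and 3.21 on the log2 scale at the early, middle and late pair, respectively (adjusted p = 0.029 for their equality).

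Another 4 clock genes were named for the strength of this dependence, and each of them changed sign between the pairs. Dbp, a clock-driven transcription factor, was higher at ZT15 than at ZT3 by 1.69 on the log2 scale, and its difference was -2.94 between ZT18 and ZT6 and -4.84 between ZT21 and ZT9 (adjusted p = 1.35e-12). Its phase value of -2.03 is the mean of these. Arntl went the other way, with -3.04, 1.42 and 4.00 at the same pairs (adjusted p = 3.32e-12). Dbp shares 18.0% of its exonic bases with Sphk2.

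For Per2, a core repressor, the differences were 4.05, 1.89 and -1.32 (adjusted p = 5.5e-11). For Npas2 they were -4.61, -1.61 and 3.59 (adjusted p = 4.72e-09), at levels down to 0 CPM in the lowest light library. The single libraries show the same spread, as Arntl ranged over 0.544 to 36.3 CPM (median 5.23) within the light phase alone and over 2.91 to 27.6 CPM (median 15.1) in the dark phase.

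**Figure D3:**
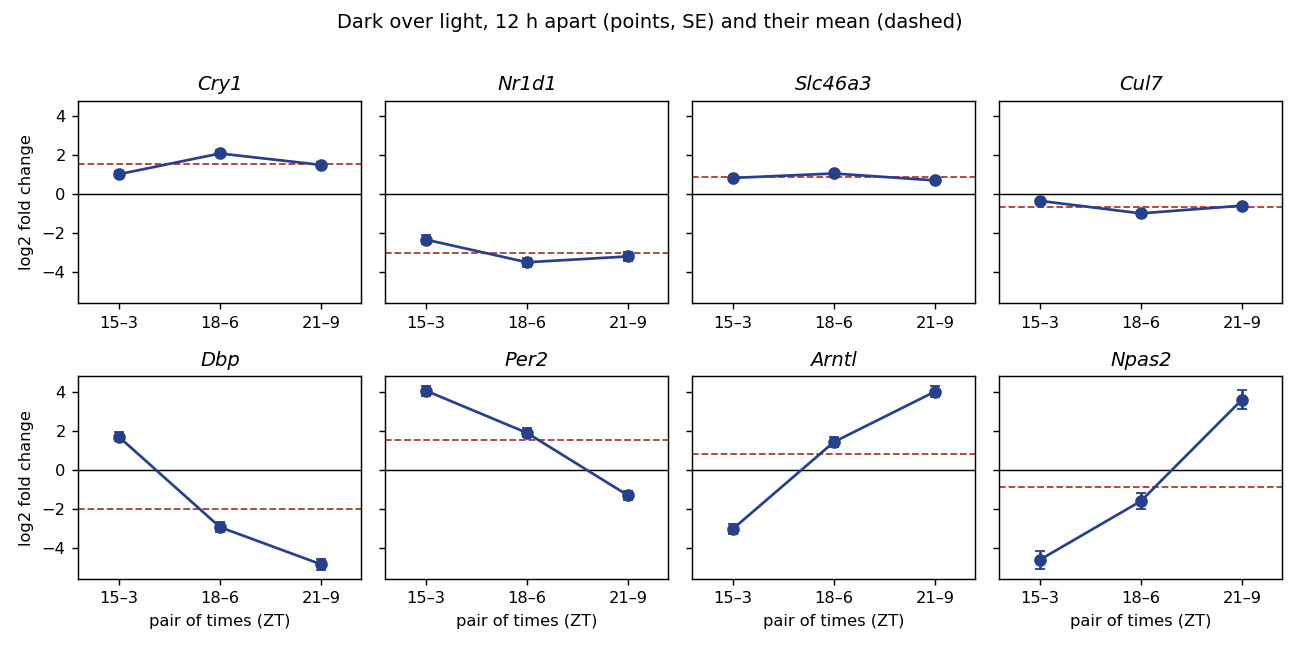
Log2 differences, dark over light, of 8 genes at the 3 pairs of times 12 h apart, with bars of ± 1 SE and a dashed line at their mean. Dbp, Per2, Arntl and Npas2 cross 0, whereas the sign of Cry1, Slc46a3, Nr1d1 and Cul7 was fixed by their choice as genes without overlap.

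Of 16 core clock genes, 5 were higher in the dark phase and 4 in the light phase (31.2% and 25.0%, against 12.5% and 13.0% of all tested genes), and 11 depended on the hours. Besides Cry1, Per2 (1.54, adjusted p = 9.6e-09) and Arntl (0.79, adjusted p = 0.000448), the dark-phase genes included Csnk1e, a kinase of PER proteins (0.32, adjusted p = 0.00247). Besides Nr1d1, the light-phase genes were Nr1d2, its paralogue (-1.17, adjusted p = 1.33e-08), Npas2 (-0.88, adjusted p = 0.0236) and Ciart, a repressor (-0.51, adjusted p = 0.0232). Per1, Per3, Cry2 and Clock did not pass between the phases, but each depended on the hours (adjusted p = 0.0273, 1.54e-09, 0.000662 and 4.31e-08, respectively).

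Output factors of the clock were given by 10 genes, of which 3 were higher in the dark phase and Dbp in the light phase (30.0% and 10.0%, against 12.5% and 13.0% of all tested genes). Without replicate 1 of ZT9 a further gene passed in the light direction. Nfil3, the repressor that competes with DBP at D-box sequences, ranged over 18.1 to 40.6 CPM (median 25.4) in the dark and 3.13 to 30.0 CPM (median 7.80) in the light libraries (log2 fold change 1.49 ± 0.14 SE, adjusted p = 3.62e-08), but ZT15 differed from ZT3 by only -0.01 on the log2 scale (adjusted p = 2.69e-05 for dependence on the hours). Wee1, a clock-controlled kinase of the cell cycle, was higher in the dark phase (0.70, adjusted p = 3.18e-05).

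Heat-shock and cold-inducible genes were the list with the highest share in 1 direction. Of its 21 members, 17 were higher in the dark phase and 1, Cirbp, in the light phase (81.0% and 4.76%, against 12.5% and 13.0% of all tested genes), with a median log2 fold change of 0.56 against -0.01 over all tested genes. Hspa8, the constitutive HSP70 of the cytosol, ranged over 331 to 948 CPM (median 588) in the dark and 151 to 498 CPM (median 225) in the light libraries (log2 fold change 1.29 ± 0.11 SE, adjusted p = 4.78e-09). Hsph1, its nucleotide exchange factor, ranged over 32.3 to 151 CPM (median 82.3) and 13.4 to 73.5 CPM (median 19.2) (log2 fold change 1.70 ± 0.19 SE, adjusted p = 3.91e-07). In both genes replicates 1 and 3 of ZT3 were the only light libraries that reached into the dark range.

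The inducible HSP70 genes Hspa1b and Hspa1a lay near 1 CPM in the light phase, with 0.597 to 1.76 CPM (median 1.06) and 0.418 to 1.65 CPM (median 0.870), and reached 18.1 and 13.5 CPM in the highest dark libraries. Their log2 fold changes were 1.94, adjusted p = 3.37e-05 for Hspa1b and 1.83, adjusted p = 5.21e-05 for Hspa1a, but the genes are nearly identical in sequence, so the split of reads between them is uncertain. At ZT15 the means were 12.4 and 9.78 CPM, against 1.34 and 1.17 CPM at ZT21. The log2 difference of Hspa1b was 3.16 at the early, 2.03 at the middle and 0.65 at the late pair, and replicate 2 of ZT15 stood at 1.48 CPM, within the light range.

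Co-chaperones of both large systems went with them. Of the HSP40 family, Dnaja1 (0.94, adjusted p = 1.21e-07), Dnajb1 (0.69, adjusted p = 2.07e-05) and Dnajb4 (0.43, adjusted p = 2.63e-07) were higher in the dark phase. At the late pair the libraries of all of them overlapped. Dnaja1 lay at 41.8 to 57.5 CPM at ZT21 and 37.1 to 46.7 CPM at ZT9. Dnajb1 lay at 19.3 to 26.5 and 20.8 to 24.1 CPM, and Dnajb4 at 39.1 to 44.6 and 37.5 to 44.3 CPM. Of the HSP90 system, the chaperone genes Hsp90aa1 (0.69, adjusted p = 0.00148) and Hsp90ab1 (0.24, adjusted p = 0.0284) were higher in the dark phase. So were the co-chaperone genes Stip1, which links HSP70 to HSP90 (0.69, adjusted p = 1.8e-05), Ahsa1, which activates the ATPase of HSP90 (0.56, adjusted p = 3.38e-05), and Chordc1 (0.90, adjusted p = 2.36e-07). Hsp90ab1 passed in 15 of the 24 fits without single libraries.

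The list further held the small heat-shock protein Hspb1 (0.74, adjusted p = 0.00031), the HSP110 gene Hspa4l (0.52, adjusted p = 0.0143), Cacybp (0.42, adjusted p = 0.000769) and the collagen chaperone Serpinh1 (0.44, adjusted p = 0.000231). The mitochondrial chaperonins Hspd1 and Hspe1 did not pass (log2 fold change -0.02 and 0.07), nor did the co-chaperone Bag3 (0.17, adjusted p = 0.0841). Cirbp and Rbm3, both known as cold-inducible RNA-binding proteins, differed in opposite directions: Rbm3 was higher in the dark phase, at 32.0 to 47.4 CPM (median 39.4) against 22.8 to 36.2 CPM (median 30.5) (log2 fold change 0.35 ± 0.07 SE, adjusted p = 0.000754).

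The counts of this list changed little with the choice of libraries. Within lane 3, 16 members were higher at ZT15 and 1 at ZT9, and with lane as an additive factor the counts were 16 and 1. Without the libraries high in muscle markers they were 15 and 1, and leaving out single libraries gave between 16 and 18 higher in the dark phase. Of the 21 members, 8 depended on the hours, against 13.1% of all tested genes. With time points as the unit, none of the 5 genes that passed was in this list. At ZT0, left out of both groups, Hspa8 stood at 563 to 936 CPM and Hsph1 at 94.7 to 250 CPM, not below their dark ranges. The heat-shock core was found in the promoter windows of 9 of the 17 members with a window (Bag3, Chordc1, Dnaja1, Hspa1a, Hspa1b, Hspb1, Hspd1, Hspe1 and Hsph1), which includes 3 genes that did not pass. Of 22 chaperones and unfolded-protein genes of the endoplasmic reticulum, none was higher in the dark phase (0 also at an unadjusted p under 0.05 and with DESeq2) and 4 (18.2%, against 13.0% of all tested genes) were higher in the light phase (Hsp90b1, Sel1l, Canx and Edem1, with log2 fold changes between -0.23 and -0.13). Within lane 3 none of the endoplasmic reticulum genes passed, and the heat-shock core was in 0 of their 19 windows.

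**Figure D4:**
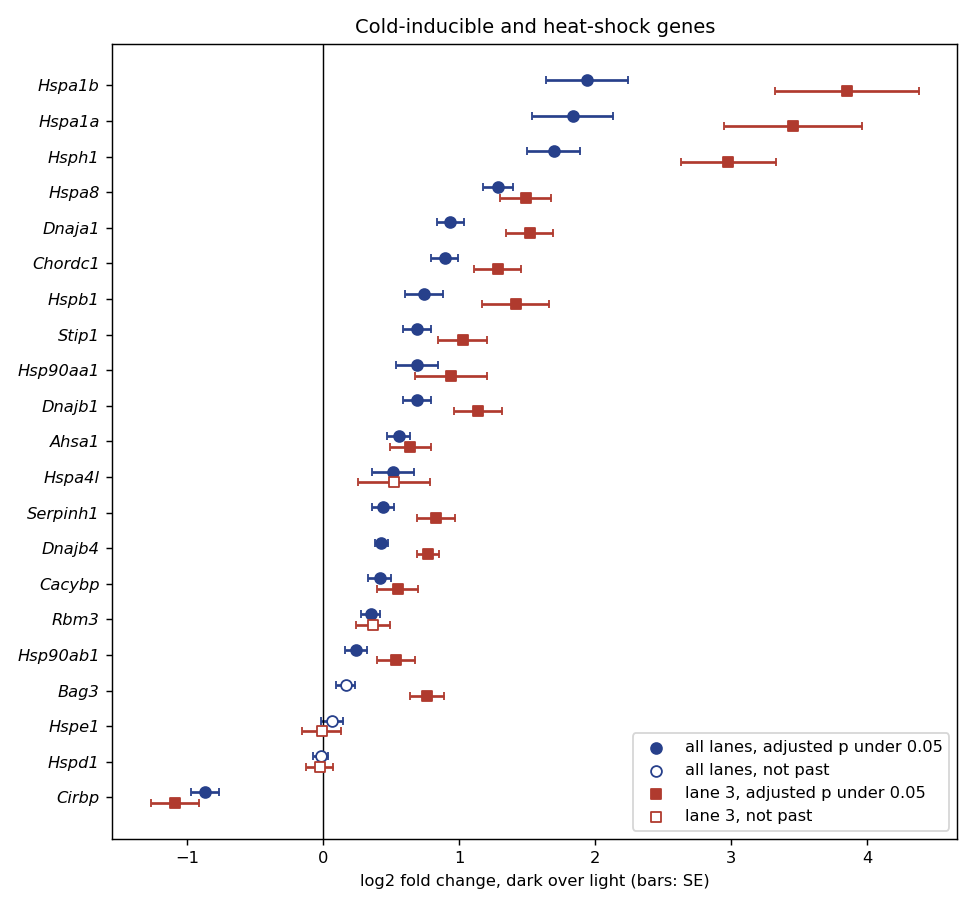
Log2 fold changes with bars of ± 1 SE of the 21 heat-shock and cold-inducible genes, for all lanes (circles) and for ZT15 against ZT9 within lane 3 (squares), with filled symbols for genes past the threshold. Hspa1b and Hspa1a lead, 17 genes are past the threshold above 0, and Cirbp alone is past it below 0.

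Of 15 genes that respond to feeding and insulin, 8 were higher in the dark and 2 in the light phase (53.3% and 13.3%, against 12.5% and 13.0% of all tested genes), with a median log2 fold change of 0.43. Angptl8, a feeding-induced secreted protein that takes part in the control of lipoprotein lipase, ranged over 19.2 to 156 CPM (median 63.0) in the dark and 14.0 to 34.4 CPM (median 22.4) in the light libraries (log2 fold change 1.48 ± 0.27 SE, adjusted p = 0.0002). The lowest dark libraries lay within the light range.

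Hk2, the insulin-regulated hexokinase of muscle and fat, ranged over 235 to 874 CPM (median 582) in the dark and 181 to 339.8 CPM (median 269) in the light libraries (log2 fold change 1.11 ± 0.18 SE, adjusted p = 5.37e-05). Pnpla3 (0.92, adjusted p = 0.000293), the glucose-sensing transcription factor Mlxipl (0.57, adjusted p = 0.00888), Thrsp, a nuclear regulator of lipogenesis (0.51, adjusted p = 0.0263), Srebf1 (0.46, adjusted p = 0.0101) and the insulin-regulated glucose transporter Slc2a4 (0.43, adjusted p = 0.00534) were higher in the dark phase too. Pfkfb3, which makes the activator of phosphofructokinase (-0.52, adjusted p = 0.0107), and Trib3, an inhibitor of AKT (-0.86, adjusted p = 9.33e-06), were higher in the light phase. Within lane 3 the counts were 4 higher at ZT15 and 0 higher at ZT9, and with lane as an additive factor 2 and 0.

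Of 13 fasting-responsive genes tested, none was higher in the dark phase (edgeR, 0 also at an unadjusted p under 0.05 and with DESeq2) and 6 were higher in the light phase (46.2%, against 13.0% of all tested genes). Pdk4, the kinase that closes pyruvate dehydrogenase when fat is burnt, ranged over 508 to 2117 CPM (median 1555) in the light and 334 to 1788 CPM (median 950.4) in the dark libraries (log2 fold change -0.73 ± 0.20 SE, adjusted p = 0.00762) and depended on the hours, with its widest difference between ZT15 and ZT3 (-2.06) and the opposite sign between ZT21 and ZT9 (0.60). Foxo1, the transcription factor that insulin excludes from the nucleus, differed by -0.24, adjusted p = 0.0221.

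Other members were close to the threshold. Angptl4, the fasting-induced inhibitor of lipoprotein lipase, ranged over 139 to 554 CPM (median 375) in the light and 54.8 to 429.6 CPM (median 205) in the dark libraries (log2 fold change -0.71 ± 0.25 SE, adjusted p = 0.0389). Pck1 (-0.51, adjusted p = 0.0465), which takes part in making glycerol phosphate in fat, and Irs2 (-1.09, adjusted p = 0.0414) passed as well, but Angptl4 passed in 12, Pck1 in 8 and Irs2 in 11 of 24 fits without single libraries. The count of 6 ran from 2 (such as without replicate 3 of ZT3) to 7 in these fits, was 3 with scaling by library size alone and 0 with lane as an additive factor.

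Of 20 genes of lipid storage and lipolysis, 3 were higher in each phase (15.0%, near the 12.5% and 13.0% of all tested genes). Without replicate 1 of ZT3, 5 were higher in the light phase. G0s2, an inhibitor of adipose triglyceride lipase, ranged over 219 to 794 CPM (median 469) in the dark and 64.0 to 348 CPM (median 166) in the light libraries (log2 fold change 1.41 ± 0.19 SE, adjusted p = 6.1e-06). Lpin1, a phosphatidate phosphatase (0.67, adjusted p = 4.1e-05), and Ces1d, a carboxylesterase with triglyceride hydrolase activity (0.41, adjusted p = 1.55e-07), were higher in the dark phase too. Gpat4, which starts glycerolipid synthesis (-0.74, adjusted p = 3.14e-06), Acsl1, which activates fatty acids (-0.47, adjusted p = 0.000411), and the droplet coat gene Plin1 (-0.19, adjusted p = 0.00461) were higher in the light phase.

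Of 14 de novo lipogenesis genes tested, Scd2 alone passed (7.14%, against 12.5% of all tested genes), at 180.3 to 1342 CPM (median 637) in the dark and 97.9 to 848 CPM (median 321) in the light libraries (log2 fold change 0.85 ± 0.25 SE, adjusted p = 0.0144). Fasn and Acly did not pass (log2 fold change 0.19, adjusted p = 0.654, and 0.73, adjusted p = 0.0652), and neither did Lpl of the lipoprotein lipase pathway (-0.03, adjusted p = 0.818). The paper gives Lpl an estimated peak at ZT12, which lies outside both groups and midway between them. A gene with such a course can average to little difference here, so this value does not show a constant level. Without replicate 1 of ZT9, 4 lipogenesis genes passed in the dark and 1 in the light direction, and without replicate 1 of ZT15 3 and 1. Of 19 genes of fatty acid oxidation, Cpt1a alone passed (5.26%, against 13.0% of all tested genes), with higher levels in the light phase (-0.42, adjusted p = 6.16e-06), and without replicate 1 of ZT15 a further 2 passed with higher levels in the dark phase.

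Of 21 cholesterol synthesis genes tested, 10 were higher in the dark phase (47.6%, against 12.5% of all tested genes) and none in the light phase (edgeR, 2 at an unadjusted p under 0.05, 0 with DESeq2, and 1 without replicate 4 of ZT6 or replicate 2 of ZT18), with a median log2 fold change of 0.34. Mvd, a decarboxylase of the mevalonate pathway, ranged over 6.31 to 29.1 CPM (median 14.9) in the dark and 3.90 to 12.5 CPM (median 7.27) in the light libraries (log2 fold change 0.97 ± 0.23 SE, adjusted p = 0.00263). Fdft1, which commits farnesyl units to squalene, ranged over 128 to 298 CPM (median 189) and 83.9 to 174 CPM (median 132) (log2 fold change 0.53 ± 0.10 SE, adjusted p = 0.000495). Its count is shared in 18.3% of exonic bases with other genes, and its phases overlapped.

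Among the others were Sqle (0.78, adjusted p = 0.0173), Fdps (0.78, adjusted p = 0.0148), Cyp51 (0.59, adjusted p = 0.0101), Lss (0.45, adjusted p = 0.0361), Msmo1 (0.36, adjusted p = 0.0408) and Insig1, which retains the SREBP precursors (0.68, adjusted p = 0.00717). Lss passed in 12 and Msmo1 in 8 of 24 fits without single libraries. The count depended on the middle of the dark phase: with ZT18 left out, 2 members were higher in the dark and 1 in the light phase, and within lane 3 and with lane as an additive factor 1 was higher in the dark phase.

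Of 18 thermogenic genes tested, none was higher in the dark phase (edgeR, 0 also at an unadjusted p under 0.05 and with DESeq2) and 4 were higher in the light phase (22.2%, against 13.0% of all tested genes). Ucp1 ranged over 1701 to 4318 CPM (median 2205) in the light and 955 to 2309 CPM (median 1693) in the dark libraries (log2 fold change -0.67 ± 0.16 SE, adjusted p = 0.00346), with a mean of 2549 against 1600 CPM. The others were Ppara, a receptor for fatty acids (-0.73, adjusted p = 0.00745), the potassium channel gene Kcnk3 (-0.35, adjusted p = 0.000255) and Esrrg, an orphan receptor of mitochondrial genes (-0.33, adjusted p = 0.00604). Without replicate 2 of ZT3, 1 was higher in the dark phase. Within lane 3, 1 of the 18 genes was higher at ZT9 and none at ZT15. The summed brown adipocyte markers, which include Ucp1, were lower in the dark phase, at 4784 ± 632 against 5700.0 ± 972 CPM (SD, n = 12 each, permutation test, two-sided, p = 0.00962, adjusted p = 0.0396), of which Ucp1 was the only member past the threshold. Their means differed by -916.5 CPM, beside means of 2549 and 1600 CPM for Ucp1 alone, so the sum is not a result separate from that of Ucp1.

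Adrenergic and cAMP signalling turns thermogenesis on. Of 22 of its genes, 7 were higher in the light and 2 in the dark phase (31.8% and 9.09%, against 13.0% and 12.5% of all tested genes). Prkaca, the catalytic subunit of protein kinase A, ranged over 309.9 to 387 CPM (median 339) in the light and 251 to 295 CPM (median 278) in the dark libraries (log2 fold change -0.31 ± 0.04 SE, adjusted p = 9.67e-07) without overlap, and no dependence on the hours passed the threshold (adjusted p = 0.895). The regulatory subunit gene Prkar2b (-0.38, adjusted p = 0.000456), Adcy3 (-0.47, adjusted p = 0.0132) and, by smaller differences, Prkar1a, Adcy6 and Crtc2 were higher in the light phase. Creb1 (0.17, adjusted p = 0.0165) and Crem (0.20, adjusted p = 0.0201), transcription factors of the cAMP response, were higher in the dark phase. Within lane 3, 3 members were higher at ZT9 and none at ZT15, and without the libraries high in muscle markers 8 were higher in the light and 0 in the dark phase.

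Mitochondrially encoded genes took 22.0% ± 2.31 of the counts in the dark and 24.6% ± 2.21 in the light phase (SD, n = 12 each, permutation test, two-sided, p = 0.0108, adjusted p = 0.0396). The 5 genes with the widest CPM difference to the light side were all among them. They were mt-Nd1 (-0.34, adjusted p = 4.95e-06), mt-Nd2 (-0.20, adjusted p = 0.0077), mt-Nd5 (-0.24, adjusted p = 0.0157), mt-Cytb (-0.17, adjusted p = 0.0103) and mt-Co1 (-0.16, adjusted p = 0.0398), the last of which passed in 13 of 24 fits without single libraries. For mt-Nd1, a subunit of complex I, the libraries ranged over 22250 to 28780 CPM (median 25650) in the light and 16340 to 24810 CPM (median 19490) in the dark phase. Its differences at the early, middle and late pair were -0.34, -0.63 and -0.06 (adjusted p = 0.00423 for their equality). Those of mt-Nd2 were -0.22, -0.48 and 0.11 (adjusted p = 0.01). The mitochondrial share at ZT18 ran from 18.5% to 20.7%, below all other dark libraries. Within lane 3, mt-Nd1 and mt-Nd5 passed between ZT15 and ZT9, and mt-Nd2, mt-Cytb and mt-Co1 did not.

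The ribosomal RNAs of mitochondria differed in the opposite direction. mt-Rnr2, the 16S rRNA, ranged over 2745 to 5999 CPM (median 4216) in the dark and 1925 to 3535 CPM (median 2378) in the light libraries (log2 fold change 0.75 ± 0.10 SE, adjusted p = 4.12e-06), and mt-Rnr1, the 12S rRNA, over 1562 to 2885 CPM (median 2220) and 1004 to 1964 CPM (median 1405) (log2 fold change 0.59 ± 0.09 SE, adjusted p = 2.12e-05). Of the 15 genes in all, 7 were higher in the dark and 6 in the light phase (46.7% and 40%, against 12.5% and 13.0% of all tested genes). The dark-phase genes other than the rRNAs (mt-Nd3, mt-Nd4l, mt-Atp6, mt-Co3 and mt-Co2) had dark-phase medians between 5.07 and 78.3 CPM, far below mt-Co1, and nuclear copies of mitochondrial sequence make their counts uncertain. Without the libraries high in muscle markers 7 and 2 genes passed, and within lane 3 the counts were 2 and 2. Of the 15 genes, 4 depended on the hours.

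Nuclear genes of oxidative phosphorylation had a share near that of all tested genes. Of 35, 4 (11.4%, against 12.5%) were higher in the dark phase (Ndufa2, Ndufb8, Cox6c and Cox5a, with log2 fold changes between 0.16 and 0.26) and none in the light phase (edgeR, 0 also at an unadjusted p under 0.05 and with DESeq2). This count depended on the libraries. It was 19 without replicate 1 of ZT15, 14 without the libraries high in muscle markers, 10 with scaling by library size alone and 0 within lane 3. No enzyme of the tricarboxylic acid cycle passed among 20 with edgeR, whereas 4 had an unadjusted p under 0.05, DESeq2 called 2 and edgeR called 5 without replicate 1 of ZT15, all higher in the dark phase.

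Collagens and matrix genes were the list with the highest share in the light direction. Of 28 members, 16 were higher in the light and 3 in the dark phase (57.1% and 10.7%, against 13.0% and 12.5% of all tested genes), with a median log2 fold change of -0.37. Fbn1, the fibrillin of microfibrils, ranged over 19.3 to 52.6 CPM (median 33.6) in the light and 9.44 to 27.6 CPM (median 14.1) in the dark libraries (log2 fold change -1.20 ± 0.17 SE, adjusted p = 1.49e-05). Col15a1, a collagen of basement membrane zones, ranged over 41.3 to 69.0 CPM (median 58.7) and 17.2 to 43.0 CPM (median 31.4) (log2 fold change -0.83 ± 0.10 SE, adjusted p = 6.93e-07). Col4a1, of the basement membrane itself, ranged over 392 to 598 CPM (median 504) and 292 to 402 CPM (median 369) (log2 fold change -0.48 ± 0.05 SE, adjusted p = 7.9e-08). In Col15a1 and Col4a1 replicate 4 of ZT9 was the only light library that reached into the dark range, and in Fbn1 more light libraries did.

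The fibrillar collagen genes Col1a1 (-0.72, adjusted p = 0.00607), Col3a1 (-0.62, adjusted p = 0.00211) and Col5a1 (-0.59, adjusted p = 8.94e-05) and the microfibrillar Col6a1, Col6a2 and Col6a3 (log2 fold changes between -0.46 and -0.42) were higher in the light phase as well. Col1a2 passed in 11 of 24 fits without single libraries. The exceptions higher in the dark phase were Lox, which crosslinks collagen (0.48, adjusted p = 0.000171), the inhibitor Timp3 (0.34, adjusted p = 0.00312) and Lama4 (0.22, adjusted p = 0.0346), the last of which passed in 13 of those fits. Fbn1 shares 20.1% of its exonic bases with other genes.

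The matrix counts shrank within lanes, to 4 higher at ZT9 and 1 higher at ZT15 in lane 3, and to 4 and 0 with lane as an additive factor. The summed level of 10 fibroblast and progenitor markers was 380.3 ± 75.6 CPM (255 to 569) in the dark and 443 ± 72.2 CPM (339 to 585) in the light phase (SD, n = 12 each, permutation test, two-sided, p = 0.0488, adjusted p = 0.0895), with all 10 detected. Of these markers, 2 were higher in the light phase (20.0%, against 13.0% of all tested genes), Pdgfra (-0.47, adjusted p = 0.00175) and Pdgfrb (-0.31, adjusted p = 0.00106), and 6 without replicate 1 of ZT15 or without the libraries high in muscle markers. Their part in the matrix difference was not tested.

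Leukocyte markers past the threshold were mostly higher in the light phase too, at low levels. Of 11 lymphoid markers tested, 5 were higher in the light phase (45.5%, against 13.0% of all tested genes, and 3 in several of the fits without a single library, such as without replicate 2 of ZT3) and none in the dark phase (edgeR, 0 also at an unadjusted p under 0.05 and with DESeq2), led by the B cell genes Cd79b (-1.35, adjusted p = 0.000296) and Ms4a1 (-1.06, adjusted p = 0.00321). The T cell genes Cd3e and Trbc2 passed too, but in 7 and 14 of 24 fits without single libraries. No defining marker of the list was at 0 in every library, though their means lay between 0.136 and 1.08 CPM. Of 13 macrophage and leukocyte markers, 4 were higher in the light phase (30.8%; Adgre1, Mrc1, Lyz2 and Csf1r) and Cd14 in the dark phase (0.51, adjusted p = 0.0172). Lyz2 passed in 9 of the 24 fits. Within lane 3, 1 lymphoid marker and 1 macrophage or leukocyte marker were higher at ZT9, and none at ZT15.

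Replicate 3 of ZT9 held a macrophage sum of 390 CPM, while its 3 companions at that time ran from 95.1 to 140 CPM. Without it 1 macrophage marker was higher in the light phase, and without replicate 1 or replicate 2 of ZT9 there were 7. Over the phases the sums ran from 77.5 to 175 CPM in the dark and from 95.1 to 390 CPM in the light libraries (permutation test, two-sided, p = 0.0461, adjusted p = 0.0895). Of 12 endothelial markers, 2 were higher in each phase (16.7%, near the 12.5% and 13.0% of all tested genes), with Flt1 (0.26, adjusted p = 0.000297) and Emcn (0.22, adjusted p = 0.00226) higher in the dark and Tek (-0.16, adjusted p = 0.0169) and Cdh5 (-0.15, adjusted p = 0.0462) higher in the light phase. Cdh5 passed in 9 of 24 fits without single libraries, and the number higher in the light phase ran from 1 (such as without replicate 3 of ZT3) to 4 (without replicate 1 of ZT9 or replicate 1 of ZT15).

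Ribosome biogenesis genes were higher in the dark phase in 13 of 24 cases and lower in 2 (54.2% and 8.33%, against 12.5% and 13.0% of all tested genes), with a median log2 fold change of 0.23. Nolc1, a nucleolar chaperone of small ribonucleoproteins, ranged over 33.0 to 73.0 CPM (median 46.4) in the dark and 23.5 to 46.5 CPM (median 30.8) in the light libraries (log2 fold change 0.62 ± 0.10 SE, adjusted p = 3.81e-05), and its difference narrowed from 1.23 to 0.61 and 0.01 over the early, middle and late pair (adjusted p = 0.00313). Heatr1, which supports RNA polymerase I, ranged over 17.9 to 25.2 CPM (median 22.1) and 10.9 to 20.7 CPM (median 13.8) (log2 fold change 0.58 ± 0.09 SE, adjusted p = 2.44e-05).

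Nop2 (0.53, adjusted p = 0.000102), Rrp12 (0.45, adjusted p = 0.00473), Utp20 (0.38, adjusted p = 0.000245) and Noc3l (0.38, adjusted p = 0.00116) were also higher in the dark phase, and Dkc1, of the pseudouridine synthase complex (-0.20, adjusted p = 0.000722), and Npm1 (-0.11, adjusted p = 0.0428) were lower, Npm1 in 12 of 24 fits without single libraries. Within lane 3 the counts were 5 and 1. Without single libraries the number lower was 1 or 2. Of 35 cytosolic ribosomal protein genes 6 (17.1%, against 12.5% of all tested genes) were higher in the dark phase, between 4 (without replicate 4 of ZT3) and 10 (without replicate 4 of ZT21) when single libraries were left out, and pseudogenes make their counts uncertain. None of them passed within lane 3. Of 30 splicing genes 6 (20.0%) were higher in the dark phase, led by the helicase gene Ddx5 (0.29, adjusted p = 1.47e-06), and 1, Hnrnpk, in the light phase, against 4 and 2 without the libraries high in muscle markers.

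**Figure D5:**
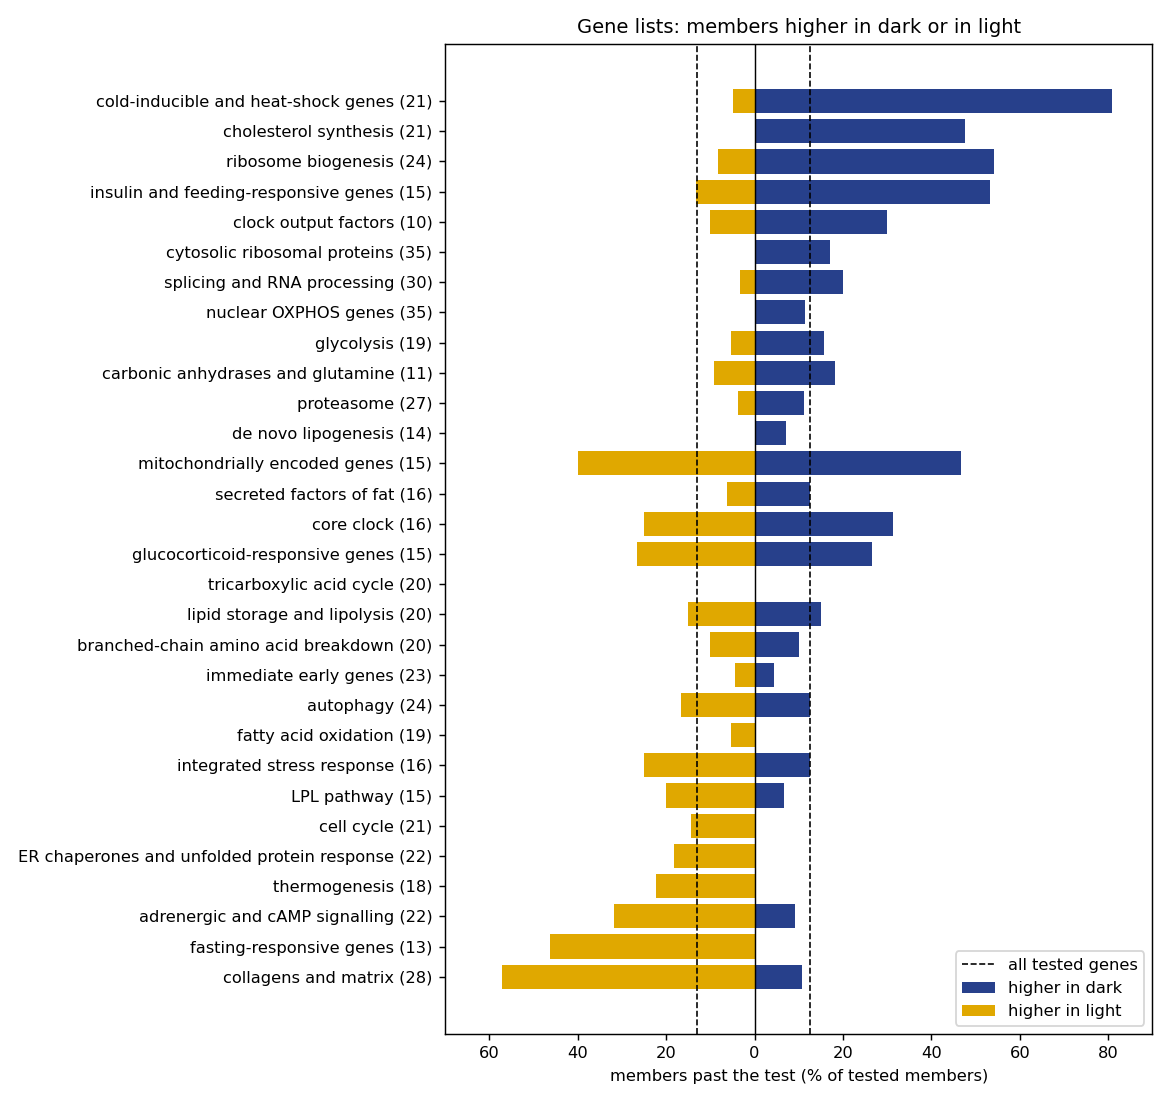
Percent of the tested members of 30 gene lists that were higher in the dark phase or in the light phase, drawn to opposite sides of 0, with dashed lines at 12.5% and 13.0%, the shares over all tested genes. The heat-shock list reaches 81.0% in the dark direction and the matrix list 57.1% in the light direction.

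Glucocorticoid-responsive genes were higher in each phase in 4 of 15 cases (26.7%, against 12.5% and 13.0% of all tested genes). Fkbp5, a co-chaperone of the glucocorticoid receptor, ranged over 5.24 to 63.8 CPM (median 16.0) in the dark and 3.40 to 14.2 CPM (median 5.92) in the light libraries (log2 fold change 1.57 ± 0.21 SE, adjusted p = 3.93e-06), with a mean of 45.3 CPM at ZT15 against 10.8 and 16.1 CPM at ZT18 and ZT21. Tsc22d3, which encodes GILZ, was higher in the dark phase too (0.98, adjusted p = 7.9e-08). The metallothionein gene Mt2 was lower (-1.91, adjusted p = 4.57e-06), but 73.5% of its exonic bases lie in overlapping genes.

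Of 16 secreted factors of fat, 2 were higher in the dark and 1 in the light phase (12.5% and 6.25%), and of 11 genes of carbonic anhydrases and glutamine 2 and 1 (18.2% and 9.09%), against 12.5% and 13.0% of all tested genes. Without single libraries the number higher in the light phase ran from 0 (such as without replicate 3 of ZT3) to 2 (without replicate 1 of ZT3, ZT9 or ZT15) for the first and from 0 to 1 for the second. Lep, which encodes leptin, ranged over 40.2 to 275 CPM (median 135) in the dark and 16.1 to 211 CPM (median 38.6) in the light libraries (log2 fold change 1.29 ± 0.25 SE, adjusted p = 0.000443), with -0.69 between ZT21 and ZT9 against 2.50 between ZT18 and ZT6 (adjusted p = 0.00151). Nampt, the rate-limiting enzyme of NAD salvage that is also secreted, ranged over 418 to 725 CPM (median 616) and 266 to 441 CPM (median 349) (log2 fold change 0.80 ± 0.07 SE, adjusted p = 1.34e-08), and its phases overlapped between 418 and 441 CPM only. Glul, the glutamine synthetase, was higher in the dark phase (0.43, adjusted p = 0.000247), with differences of 1.08, 0.37 and -0.16 at the early, middle and late pair (adjusted p = 0.000318).

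In the remaining lists the counts are to be read against the 12.5% and 13.0% of all tested genes higher in the dark and in the light phase. They were 3 and 1 of 19 for glycolysis (15.8% and 5.26%), 3 and 1 of 27 for the proteasome (11.1% and 3.70%), 2 and 2 of 20 for branched-chain amino acid breakdown (10.0% each) and 3 and 4 of 24 for autophagy (12.5% and 16.7%). Without the libraries high in muscle markers the counts were 3 and 2, 3 and 0, 3 and 1, and 2 and 2, respectively, and without replicate 1 of ZT15 or replicate 1 of ZT18 2 glycolysis genes were higher in the light phase. The number of branched-chain genes higher in the light phase was 1 or 2 when single libraries were left out. Of 16 genes of the integrated stress response, 2 were higher in the dark and 4 in the light phase (12.5% and 25.0%), and of these Atf4 was higher in the dark phase (0.39, adjusted p = 0.00691) and Atf5 in the light phase (-0.58, adjusted p = 0.000199). Of 21 cell cycle genes 3 were higher in the light phase (14.3%), near the share of all tested genes, and up to 1 was higher in the dark phase when single libraries were left out. Of 23 immediate early genes, which respond to handling and stimulation within minutes, Fosl2 was higher in the dark phase (0.48, adjusted p = 0.0111) and Klf4 in the light phase (-0.73, adjusted p = 0.00216), and from 1 to 6 (without replicate 2 of ZT21) passed in the light direction when single libraries were left out.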

How the data were processed

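RNA of iBAT was sequenced as stranded paired-end libraries on a BGI platform. Per the methods of the study and the submitters' processing notes, quality was assessed with MultiQC, and the authors mapped reads to mm10 with GSNAP (version 2017-09-11) and counted reads per Ensembl gene with HTSeq (0.6.1). The sources do not say whether strand entered the counting. The values deposited by the authors are raw counts without normalization, in 1 table of 50686 genes, 20100 of them without a read in these mice. Symbols were matched to 50376 identifiers. Gene coordinates and exon overlaps are those of GENCODE M21 on GRCm38, a later annotation than the one counted with.

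Genes were filtered with filterByExpr of edgeR (4.0.16, R 4.3.3) by time point over all 32 libraries, which left 15505 genes holding 99.9% of the counts, and scaled with TMM factors. A quasi-likelihood model with 1 coefficient per time point was fitted, and the phase contrast was the mean of ZT15, ZT18 and ZT21 minus the mean of ZT3, ZT6 and ZT9 on the log2 scale. The same fit gave F tests of the equality of the 3 differences 12 h apart and of the times within a phase, and the contrast of ZT15 and ZT9 within lane 3. Adjusted p-values in the text are those of edgeR after BH adjustment over all tested genes, with a threshold of 0.05. CPM are counts scaled to a common library total after TMM, and SE is the fold change divided by the root of F. Library measures were compared by two-sided permutation of the 24 mice (100000 resamples). The script was tested on simulated counts for the same genes.

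Genes named were, among those past the threshold with at least 1 CPM on average and no overlap of the phases, the 12 with the highest fold change and the 12 with the lowest, the 5 with the widest CPM difference each way, the 4 with the smallest p for dependence on the hours, and members of the gene lists. The comparison, the lists and the alternatives were chosen with earlier results of these data known, and lists are described by counts without a set test. Alternatives covered scaling, filters, lane, DESeq2 (1.42.0), the unit of replication and the libraries used. For genes well above 1 CPM, total counts of 16648905 or more per library limit precision little beside the spread between mice. Near or below 1 CPM, as for Ighd and the lymphoid markers, reads per library are few and counting itself adds to the spread. Mice of 1 time were compared in 36 pairs, whose mean chi-square over genes was at least 7.63, so none was a repeat of another. Promoter windows come from the RefSeq table of GRCm38.p6 and were matched by symbol or identifier. Some members of the lists are counted but not reported by name here.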

Additional observations from a re-analysis of the deposited data

Results flagged for a closer look

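In 12 of 210 groups of 4 libraries examined, the highest or lowest library lay apart from the other 3 by Dixon's criterion (chance gives about 1 in 20 groups, or 10.5 here). Replicate 1 of ZT15 did so in 5 of them. It held total counts of 17466245 where the others held about 17100000 to 17200000, a mitochondrial share of 26.7% against 22.8% to 23.2%, brown adipocyte markers of 3800 CPM against 5340 to 5380 CPM, white adipocyte markers of 525 CPM against 286 to 316 CPM, and Nsun5 at 18.7 CPM against 24.7 to 25.0 CPM. Without it 4510 genes differed between the phases in place of 3957.

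Skeletal muscle markers summed to 10270 CPM in replicate 2 of ZT3, against 66.5 to 178 CPM in the other mice of that time, and to 2530 CPM in replicate 2 of ZT6, against 59.1 to 64.4 CPM. Macrophage markers summed to 390 CPM in replicate 3 of ZT9, against 95.1 to 140 CPM. Fibroblast markers summed to 434 CPM in replicate 4 of ZT18, against 359 to 364 CPM. Among the leading genes, Cry1 stood at 20.5 CPM in replicate 1 of ZT3, against 11.7 to 13.1 CPM. Slc46a3 stood at 10.9 CPM in replicate 1 of ZT9, against 13.0 to 13.2 CPM. Scpep1 stood at 101 CPM in replicate 4 of ZT6, against 71.5 to 75.8 CPM.

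The difference between dark and light was not the same at the 3 pairs of times 12 h apart for 10 of the leading and clock genes named by rank (edgeR, F test of their equality, adjusted over all tested genes). The adjusted p was 0.00363 for Cry1, 0.0254 for Trim65, 0.00267 for Dnajb6, 0.029 for Nr1d1, 0.0399 for Cirbp and 0.00873 for Cul7, whose sign at every pair was fixed by the choice of genes without overlap. It was 1.35e-12 for Dbp, 3.32e-12 for Arntl, 5.5e-11 for Per2 and 4.72e-09 for Npas2, whose differences changed sign between pairs.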

How the results depend on the processing

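Lane and phase are largely confounded, phases are means over hours, and mice of 1 time share that time. With lane as an additive factor 779 genes differed (458 higher in the dark and 321 in the light phase), within lane 3 alone 1213 (635 and 578), and with time points as the unit 5 (2 and 3: Ppp1r3b at a log2 fold change of 1.32 and Slc46a3 at 0.85, against Nr1d1 at -2.97, Pim3 at -1.14 and Sema4b at -0.85). With ZT0 in the light and ZT12 in the dark group 2206 differed (1085 and 1121), with ZT18 left out 2242 (1131 and 1111), and against a 1.5-fold change 58 (37 and 21). Without the libraries high in muscle markers 1024 genes depended on the hours. Leaving out single libraries gave from 3475 to 4510 differing genes (1672 to 2081 and 1773 to 2429), from 1612 to 2191 that depended on the hours and from 48 to 80 without overlap, where both upper ends of the first and last range came without replicate 1 of ZT15 and 77 lacked overlap without replicate 1 of ZT3. Npas2 changed sign with lane as an additive factor (0.21), within lane 3 (0.21) and with ZT3 left out (0.24), and Arntl with ZT0 and ZT12 added (-0.63) and ZT9 left out (-0.31). The cause was not tested. Over the named genes and all alternatives, 1546 values kept their direction and side of the threshold, 152 were no longer past it and 5 changed sign. Scaling, filters, DESeq2 (1913 and 2132) and the removal of mitochondrial genes left the counts over all tested genes within 1.5 times those reported, but not those of every gene list. Replicate numbers were not taken as pairs, as deviations of same-numbered libraries had correlations from -0.791 to 0.76 (median -0.201), and with the replicate number as a block 1905 and 1946 genes differed.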

Other observations

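The libraries of ZT0 and ZT12, left out of both phases, were set beside the phase means of the 24 leading genes. At ZT0, the onset of light, the mean of 19 of the 24 genes was nearer to that of the dark phase, 8 of the 12 genes higher in the dark and 11 of the 12 higher in the light phase. At ZT12, the onset of dark, 16 of the 24 were nearer to the light phase. The exceptions include Slc46a3, which lay at 10.7 to 12.8 CPM at ZT0, within the light range in all 4 mice, and at 16.5 to 19.3 CPM at ZT12, where no mouse lay in the light range. Dnajb6 lay at 18.3 to 22.5 CPM at ZT0, again within the light range in all 4 mice. Cry1 lay at 25.8 to 35.2 CPM at ZT0, within the dark range in all 4, and Cirbp at 12.0 to 23.2 CPM.

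Genes higher in the dark phase had a median level of 21.5 CPM and those higher in the light phase of 15.2 CPM, against 12.9 CPM over all tested genes. Their median transcript lengths were 3372 and 3486 bases (3134 over all), and their GC contents 49.1% and 49.9% (49.6% over all). Protein-coding genes made up 89.8% and 91.1% of them, against 85.1% of all tested genes. These values are a description without a test.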
